A study of Mus musculus with 4 samples.

Results

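The genes described here mark and specify the subsets of dendritic cells, and 10 were chosen by name: Flt3 and Zbtb46, shared by several subsets; Batf3, Irf8, Clec9a and Wdfy4 of conventional type 1 cells; Cd209a and Clec10a of conventional type 2 cells; and Siglech and Tcf4 of plasmacytoid cells. All 10 were found among the 24421 gene rows of the count tables, and 10 of 10 passed the filter on low counts. They were measured by RNA sequencing in J558 tumours, a mouse line labelled as B lymphocyte, grown under the skin of the flank of female BALB/c mice. The mice were given TAK-931, an oral inhibitor of the replication kinase CDC7, at 60 mg/kg once daily (libraries TAK-931-1 and TAK-931-2) or 0.5% methylcellulose (Vehicle-1 and Vehicle-2), and tumours were taken on day 6. Each library is labelled as 1 allograft, a bulk tissue of tumour and host cells together, so fewer cells of a type and less RNA per cell cannot be told apart.

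Dendritic cells take up antigen, carry it to lymph nodes and present it to T cells. Conventional type 1 cells depend on IRF8 and BATF3 and present antigen from dying cells to CD8 T cells, and conventional type 2 cells mainly prime CD4 T cells. Plasmacytoid cells depend on TCF4 and secrete type I interferon, and the growth factor receptor FLT3 supports all 3 kinds. Many of these genes are also used outside dendritic cells: Irf8 in macrophages and B cells, Tcf4 and Wdfy4 in B-lineage cells, Zbtb46 in endothelium and Clec10a in macrophages.

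Total counts ran from 16487902 to 19589339 per library, and 15216 to 16270 genes had at least 1 count. Over all genes the vehicle libraries were close to each other (biological coefficient of variation 0.132) and the TAK-931 libraries were far apart (0.580). Some immune genes still differed between the vehicle libraries. Vehicle-1 exceeded Vehicle-2 by a median log2 ratio of 1.27 over T cell markers and 1.91 over NK cell markers. That median was 0.17 over macrophage markers and 0.01 over the 10 members. Cdc7, the gene of the drug's target, lay between 21.2 and 23.0 CPM in all 4 libraries, where CPM is the count scaled to a common library total with TMM factors. Below, levels are in this unit and 4 values in a row follow the order Vehicle-1, Vehicle-2, TAK-931-1 and TAK-931-2. Fold changes are log2 values, TAK-931 over vehicle, from edgeR's quasi-likelihood fit on 13669 genes. Ratios and folds of a single library are against the mean of the log2 vehicle values, so they differ from ratios of the printed means. The labels number the libraries and say no more of how they were replicated, so p-values measure only the spread between these samples.

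Of the 10 members, 7 were higher in both TAK-931 libraries than in both vehicle libraries: Zbtb46, Batf3, Irf8, Clec9a, Cd209a, Clec10a and Siglech. Over all genes tested, 30.0% were higher without overlap. Clec9a, with 4 counts in Vehicle-2, and Cd209a, with 6 in Vehicle-1, passed the filter on low counts only with the help of their TAK-931 libraries. Tcf4 was lower without overlap, as were 32.7% of all genes, and Flt3 and Wdfy4 overlapped between the groups. Irf8 and Batf3 had an unadjusted p under 0.05 in the edgeR fit, in the direction of more RNA under TAK-931, as did 11.6% of all genes. None of the 10 had an edgeR adjusted p under 0.05, and the share over all genes was 0%, the lowest adjusted p of any gene being 0.275. With DESeq2, Batf3, Irf8 and Clec9a passed at adjusted p 0.0456, 0.00131 and 0.0493, against 9.78% of all genes, and with limma-voom 0 members and 0% of all genes passed.

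The difference from vehicle was unequal between the TAK-931 tumours. TAK-931-1 exceeded TAK-931-2 in 9 of the 10 members, Wdfy4 being the exception. Against the mean of the vehicle libraries, the members had a median log2 ratio of 1.82 (TAK-931-1) and 0.56 (TAK-931-2), beside -0.02 and -0.01 over all genes. With a TAK-931 library left out, its arm holds 1 library, which the fit takes to vary as the vehicle pair did, so these calls do not carry the spread between the TAK-931 tumours. Without TAK-931-2, Batf3, Clec9a, Clec10a and Siglech passed an edgeR adjusted p of 0.05, as did 28.2% of all genes in that direction. Without TAK-931-1 none of the 10 passed it, against 28.7% of all genes in either direction. The unadjusted p in that fit was under 0.05 for Wdfy4 (log2 fold change 0.34) and Tcf4 (-0.24) in place of Irf8 and Batf3, and for 40.8% of all genes. In that fit the log2 fold changes were 1.82 for Irf8, 1.28 for Cd209a, 1.20 for Clec9a and 1.08 for Batf3. They were 0.67 for Siglech, 0.45 for Zbtb46, 0.19 for Clec10a and -0.37 for Flt3.

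**Figure D1:**
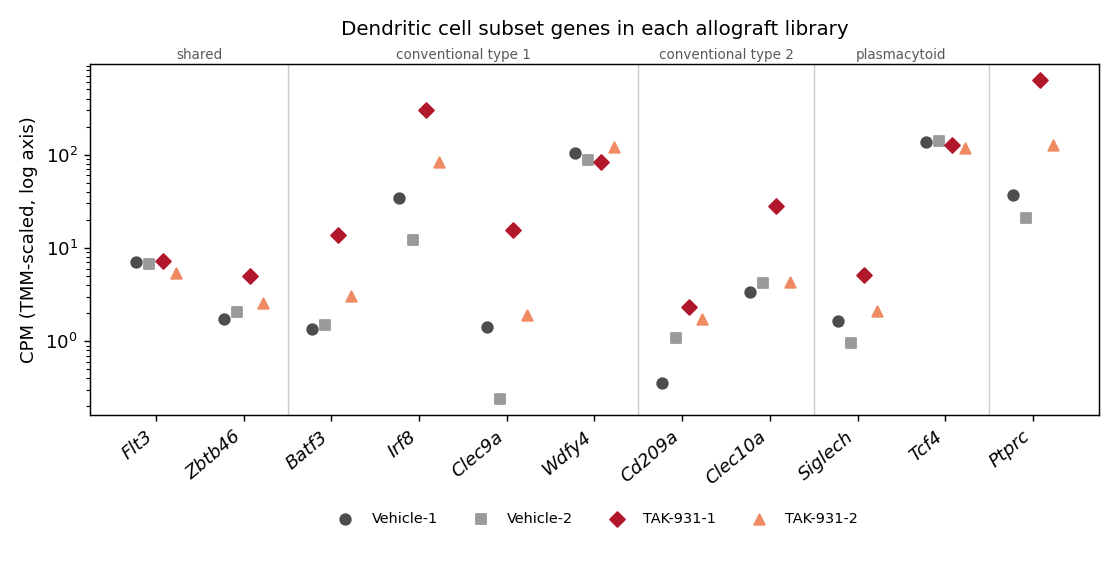
CPM of each of the 10 genes in every library on a log axis, with 1 point per tumour, marked by library, and Ptprc, the leukocyte gene used as a reference, at the right. The 7 genes with both TAK-931 points above both vehicle points include Irf8, at 301 and 83.3 against 34.6 and 12.3, while Flt3, Wdfy4 and Tcf4 stay close to their vehicle levels.

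Flt3, the receptor for the main dendritic cell growth factor, was a flat member. It measured 7.06, 6.77, 7.22 and 5.37 CPM. The TAK-931 values lay on either side of the vehicle values, with a log2 fold change of -0.14 (SE 0.45, edgeR adjusted p = 0.869) that was 0.04 without TAK-931-2. Zbtb46, a transcription factor of conventional dendritic cells, measured 1.72, 2.04, 5.06 and 2.57 CPM. Both TAK-931 libraries were above the vehicle libraries, by 2.6-fold and 1.35-fold over the vehicle mean. In the fit it differed by 1.02 on the log2 scale (SE 0.64, edgeR adjusted p = 0.39), and the exact Poisson intervals of Vehicle-2 (1.41 to 2.85) and TAK-931-2 (1.87 to 3.45) overlapped.

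To show the DNA at the starts of these genes, the RefSeq promoter windows (250 bases before to 50 after the start, GRCm38.p6) were searched on both strands for 4 motifs of factors that act in these cells. The motifs were the PU.1-IRF composite GGAANNGAA, the interferon-stimulated response element GAAANNGAA, the AP-1 site TGANTCA and the E-box CANNTG. The PU.1-IRF and interferon-stimulated letters can overlap each other. Windows existed for 8 members, 9 windows in all because Irf8 has a pair, and none is shown for Clec10a and Tcf4. The Zbtb46 window and the second Irf8 window belong to RefSeq starts inside the gene's span in the count tables, not to its outer end. The 250 bases upstream of Flt3 (chr5:147400490-147400739, minus strand) are shown as those of a flat member. Positions are counted from the start. Capitals in the sequences printed here mark matches to the first 3 motifs, and Flt3 has none.
Flt3: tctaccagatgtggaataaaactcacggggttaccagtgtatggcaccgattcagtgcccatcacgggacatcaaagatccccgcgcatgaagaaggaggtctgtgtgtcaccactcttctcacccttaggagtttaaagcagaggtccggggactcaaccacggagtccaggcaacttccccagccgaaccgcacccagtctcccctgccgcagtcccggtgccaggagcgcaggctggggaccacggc

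Of the 4 conventional type 1 genes, Irf8, Batf3 and Clec9a had the largest log2 fold changes of the members in the fit over all 4 libraries, and Wdfy4 was flat. In TAK-931-2 alone, Cd209a (log2 ratio 1.32) stood above Batf3 (1.03). Irf8, the transcription factor that sets the type 1 fate, measured 34.6, 12.3, 301 and 83.3 CPM. Every TAK-931 value exceeded every vehicle value, although Vehicle-1 was 1.48 above Vehicle-2 on the log2 scale. The vehicle mean was 23.5 ± 15.7 (SD, n = 2) and the TAK-931 mean 192 ± 154 (SD, n = 2). The log2 fold change was 3.03 (SE 0.87, edgeR adjusted p = 0.275), and the TAK-931 libraries lay 14.5-fold and 4.01-fold above the mean of the vehicle libraries.

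Batf3, which sustains Irf8 expression in type 1 cells, measured 1.36, 1.5, 13.9 and 3.03 CPM. The vehicle libraries were nearly equal, and the TAK-931 libraries lay 9.08-fold and 2.04-fold above their mean. That gave a log2 fold change of 2.56 (SE 0.91, edgeR adjusted p = 0.275). Its unadjusted p was over 0.05 without Vehicle-1, without Vehicle-2 and without TAK-931-1. Clec9a, the receptor with which type 1 cells sense dead cells, rested on few reads in the vehicle tumours. It had 24, 4, 298 and 33 counts, which is 1.42, 0.24, 15.7 and 1.93 CPM. TAK-931-2 was only just above Vehicle-1, and their exact Poisson intervals (1.33 to 2.7 and 0.912 to 2.12 CPM) overlapped. Its log2 fold change was 3.39 (SE 1.44, edgeR adjusted p = 0.288), and was 5.14 without Vehicle-1 and 2.59 without Vehicle-2.

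Wdfy4, which type 1 cells need to cross-present antigen, measured 104, 88.1, 83.9 and 122 CPM. TAK-931-1 was the lowest library and TAK-931-2 the highest, so the groups overlapped. The fitted difference was 0.10 on the log2 scale (SE 0.28, edgeR adjusted p = 0.844), and its sign turned without TAK-931-2 (-0.22) and without Vehicle-2 (-0.04). Wdfy4 ran opposite to the other 3 type 1 members, which were highest in TAK-931-1.

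The 250 bases upstream of the first Irf8 start (chr8:120736108-120736357, plus strand) are shown because Irf8 had the lowest unadjusted p of the 10 members. They hold none of the first 3 motifs.
Irf8: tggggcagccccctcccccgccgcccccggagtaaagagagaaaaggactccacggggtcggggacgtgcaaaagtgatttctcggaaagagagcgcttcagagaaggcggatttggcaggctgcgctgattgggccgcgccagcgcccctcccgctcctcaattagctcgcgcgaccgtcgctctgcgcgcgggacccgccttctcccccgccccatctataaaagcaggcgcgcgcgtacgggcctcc

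Each of the first 3 motifs was found in 1 of the 9 member windows. The PU.1-IRF letters were in Cd209a and in 8.24% of 32851 mouse promoters of the same length. The interferon-stimulated letters were in Clec9a (8.56% of all promoters) and the AP-1 letters in the window inside Zbtb46 (7.81%). The E-box was in 8 of 9 (72.3%). A match of letters is a description of the sequence and does not show that a factor binds there.

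The conventional type 2 members were both higher under TAK-931, from low vehicle levels. Cd209a, a C-type lectin that binds glycans on pathogens, had 6, 18, 44 and 30 counts, or 0.356, 1.08, 2.32 and 1.75 CPM. TAK-931-1 and TAK-931-2 were close to each other here, 3.25-fold and 2.49-fold over the vehicle mean, unlike in most members. The exact Poisson intervals of TAK-931-2 (1.18 to 2.5 CPM) and Vehicle-2 (0.639 to 1.71 CPM) overlapped. Its log2 fold change was 1.50 (SE 0.83, edgeR adjusted p = 0.35), and it ranged from 0.91 without Vehicle-1 to 2.47 without Vehicle-2. Clec10a, a lectin for galactose-type sugars, measured 3.38, 4.2, 28.2 and 4.32 CPM. Its difference lay almost wholly in TAK-931-1 (7.3-fold), since the interval of TAK-931-2 (3.39 to 5.42 CPM) nearly matched that of Vehicle-2 (3.27 to 5.3 CPM). Fitted over both, the log2 fold change was 2.10 (SE 0.99, edgeR adjusted p = 0.306). The 250 bases upstream of Cd209a (chr8:3748985-3749234, minus strand) are shown for their PU.1-IRF letters at -152 to -144, and the capitals at their end belong to a match on the other strand that runs over the start.
Cd209a: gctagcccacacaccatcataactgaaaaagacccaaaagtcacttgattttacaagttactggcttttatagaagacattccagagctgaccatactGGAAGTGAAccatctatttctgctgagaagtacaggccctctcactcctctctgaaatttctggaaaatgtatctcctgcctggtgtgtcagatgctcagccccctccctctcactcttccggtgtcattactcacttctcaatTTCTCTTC

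The plasmacytoid members went in different directions. Siglech, a surface lectin of mouse plasmacytoid cells, measured 1.66 and 0.959 CPM under vehicle and 5.16 and 2.1 under TAK-931. Both TAK-931 libraries exceeded Vehicle-1, TAK-931-2 by a margin within counting error (1.47 to 2.91 against 1.1 to 2.4 CPM). The log2 fold change was 1.47 (SE 0.77, edgeR adjusted p = 0.333), and it ran from 0.67 without TAK-931-1 to 1.95 without TAK-931-2. Tcf4, the transcription factor that sets the plasmacytoid fate, measured 137 and 140 CPM under vehicle and 126 and 118 under TAK-931. Both TAK-931 values were below both vehicle values, with means of 138 ± 2.53 and 122 ± 5.68 (SD, n = 2 each). The log2 fold change was -0.19 (SE 0.20, edgeR adjusted p = 0.594).

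**Figure D2:**
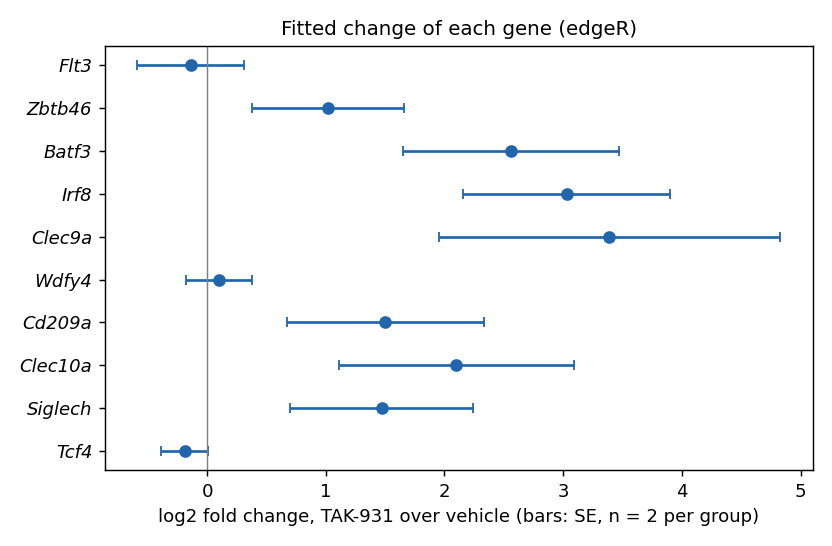
Log2 fold change of TAK-931 over vehicle for each of the 10 genes from the edgeR fit, with bars of 1 SE, ordered by role. Clec9a (3.39) and Irf8 (3.03) lie farthest from 0 and Flt3, Wdfy4 and Tcf4 lie within 0.19 of it.

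**Figure D3:**
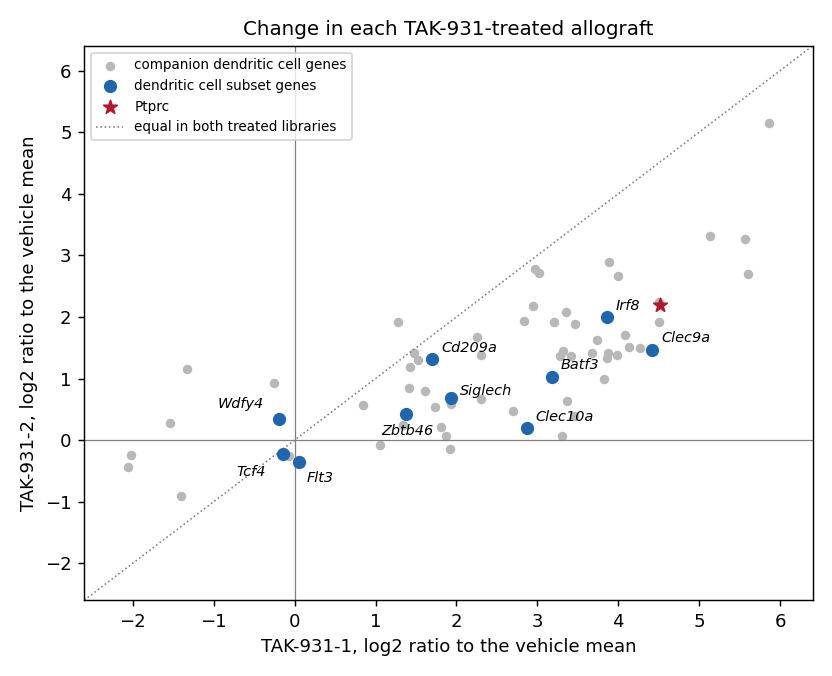
Log2 ratio over the mean of the vehicle libraries, with TAK-931-1 on the x axis and TAK-931-2 on the y axis, with blue points for the 10 genes, grey points for the other dendritic cell genes, a star for Ptprc and a dotted line of equal ratios. Of the 10 genes, all but Wdfy4 lie under the line, with Clec9a at 4.42 and 1.47 and Irf8 at 3.86 and 2.00.

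Levels of different genes were compared per kilobase of exon, as CPM per kb. Under vehicle the order of means was Tcf4 (18), Wdfy4 (9.92), Irf8 (6.83), Clec10a (2.52), Batf3 (2.01), Flt3 (1.89), Zbtb46 (0.564), Siglech (0.546), Cd209a (0.483) and Clec9a (0.252). Neighbours whose library values overlapped, and so did not differ beyond their spread, were Wdfy4 and Irf8, Batf3 and Flt3, Zbtb46 and Siglech, Siglech and Cd209a, and Cd209a and Clec9a. Under TAK-931, Irf8 stood first at 56.0, followed by Tcf4 at 15.8, Batf3 at 11.9, Clec10a at 10.8 and Wdfy4 at 10.6. Clec9a, last under vehicle, came next at 2.68, before Flt3 (1.72), Siglech (1.52), Cd209a (1.37) and Zbtb46 (1.14). Among these, library values separated Irf8 from Tcf4 and Wdfy4 from Clec9a, and all other neighbours overlapped.

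The leukocyte gene Ptprc (CD45) measured 36.6, 20.8, 633 and 128 CPM, so the TAK-931 libraries were 22.8-fold and 4.61-fold above vehicle. As a share of Ptprc CPM in the same library, Irf8 was 94.3% and 59.4% under vehicle and 47.6% and 65.2% under TAK-931, so the groups overlapped. Clec9a was 3.88% and 1.15% against 2.48% and 1.51%, and Cd209a was 0.971% and 5.19% against 0.366% and 1.37%, and both overlapped too. The other 7 members were lower relative to Ptprc in both TAK-931 libraries, as were 92.1% of all genes. Clec10a, for example, was 9.22% and 20.2% against 4.46% and 3.38%. The log2 ratio of a member minus that of Ptprc had a median over the 10 members of -2.70 (TAK-931-1) and -1.65 (TAK-931-2), beside -4.53 and -2.21 over all genes, and Clec9a in TAK-931-1 (-0.09) was the member nearest to Ptprc there.

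**Figure D4:**
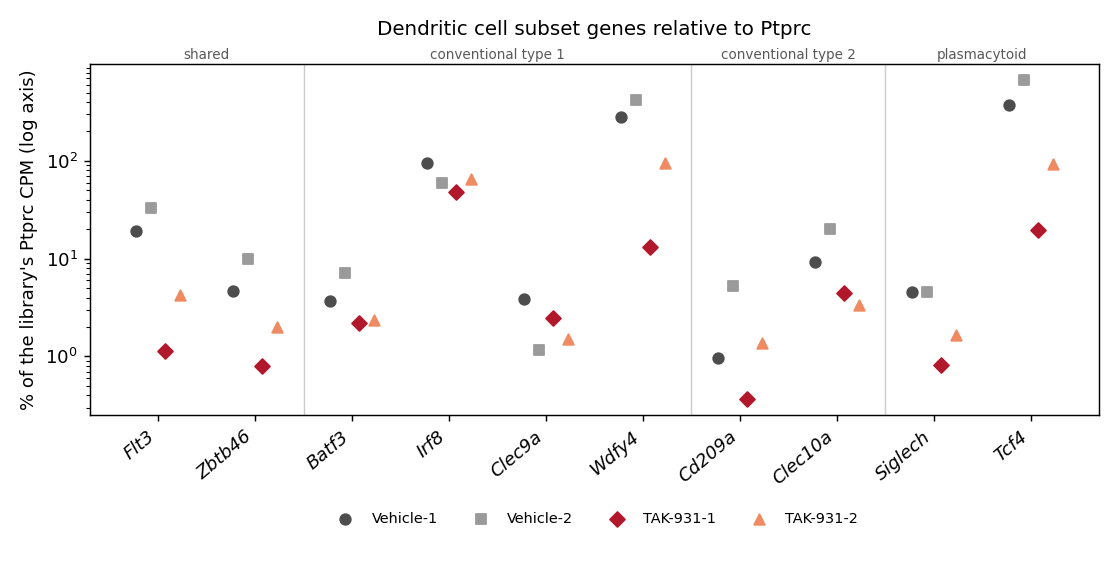
CPM of each of the 10 genes as a percentage of the Ptprc CPM of the same library, on a log axis, with 1 point per tumour. Irf8, Clec9a and Cd209a have overlapping groups, and the other 7 genes have both TAK-931 points below both vehicle points.

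Markers of several other cell types were higher in the same libraries as the members. Their counts without overlap stand beside 30.0% higher and 32.7% lower over all genes. The 3 of 8 endothelial markers higher and 2 of 7 plasma cell markers lower were near these shares. The summed CPM of 12 macrophage markers was 917, 909, 14937 and 2545, and 11 of the 12 were higher without overlap. The 9 T cell markers summed to 33.0, 21.8, 1298 and 94.4, and all 9 were higher. The 7 NK cell markers summed to 24.1, 8.87, 386 and 85.5, with 6 higher and Klra8 at 0 in every library. Most of that sum came from Prf1, Gzma and Eomes, which cytotoxic T cells also use, and Ncr1 measured 2.73, 0.36, 11.3 and 8.69 CPM. The 8 fibroblast markers summed to 1884, 2141, 14810 and 5106, with 7 higher, and the 7 neutrophil markers in the tables to 13.8, 14.6, 131 and 23.3, with 1 of 4 tested higher and Elane at 0 in every library. The 8 endothelial markers, of a tissue that also uses Zbtb46, summed to 287, 309, 932 and 289, with 3 higher, and TAK-931-2 lay within the vehicle range. The 7 plasma cell markers summed to 8918, 9474, 4516 and 12870, with 2 lower without overlap. The 9 B cell markers summed to 202, 245, 133 and 239, with 1 higher and 1 lower of 5 tested and the defining gene Pax5 at 0 in every library. All 7 plasma cell markers were lowest in TAK-931-1, as Wdfy4 was. Their sum was highest in TAK-931-2 mainly through Jchain, at 5080, 5658, 3136 and 8124 CPM, and Sdc1 and Xbp1 were lower there than in both vehicle libraries. The part of these cells in the members' values was not tested.

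Other genes of dendritic cells were taken from 5 lists of 61 genes, of which 55 could be tested. Of these, 42 were higher and 3 lower without overlap, beside 30.0% and 32.7% of all genes. At an unadjusted p under 0.05 by edgeR 30 were higher, beside 11.6% of all genes, and 1 was lower, with 0 at an adjusted p under 0.05. The counts of each list are read against the same shares. Their median log2 fold change was 2.53, beside 1.48 over the 10 members and 0.02 over all genes. The lists hold genes that T cells, macrophages and NK cells also use. The filter on low counts asked for enough counts in 2 libraries. Genes nearly absent under vehicle, such as Il12b with 2 and 0 counts, passed it only through the TAK-931 libraries where they were high. For such genes the count of higher genes was largely fixed by the filter.

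Among other conventional type 1 genes, 9 of 11 tested were higher without overlap, and 6 of the 11 had an unadjusted p under 0.05. Xcr1, the chemokine receptor that defines the subset, measured 1.3, 0.599, 14.6 and 2.57 CPM and was named for that role. As in Clec9a, TAK-931-1 was far above the rest. Cadm1, an adhesion molecule of type 1 cells, measured 4.57, 5.15, 95.7 and 13.9 CPM, with a log2 fold change of 3.49 (SE 1.02). Id2, a repressor needed for type 1 development, measured 12.6, 6.17, 202 and 42.1 CPM, with a log2 fold change of 3.70 (SE 0.93). Tlr3, the sensor of double-stranded RNA, had a log2 fold change of 2.64 (SE 0.89), and Naaa, a lysosomal hydrolase, one of 1.81 (SE 0.54). All of these were higher in both TAK-931 libraries than in both vehicle libraries.

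Among other conventional type 2 genes, 6 of 11 were higher and 1 lower without overlap. The 4 with an unadjusted p under 0.05 were Sirpa, an inhibitory receptor for CD47 (73.9, 56, 911 and 128 CPM), Itgam, the integrin CD11b (log2 fold change 3.36, SE 0.95), Clec4a2, an inhibitory lectin (3.11, SE 1.03), and Notch2, which type 2 cells need in spleen (1.41, SE 0.50). These are also genes of macrophages. Irf4, a factor of both type 2 cells and plasma cells, measured 737, 762, 298 and 1671 CPM. It was lowest in TAK-931-1 and highest in TAK-931-2, and it is also one of the plasma cell markers above. Cd24a had the same order of TAK-931 libraries, at 210, 194, 69.3 and 244 CPM, and Esam the opposite one, at 22.9, 31.3, 102 and 24.2 CPM. Mgl2, the close paralog of Clec10a and chosen here after its values were seen, measured 25.0, 24.0, 5.95 and 20.8 CPM, lower in both TAK-931 libraries. Clec10a was clearly higher in TAK-931-1 alone (28.2 CPM), since TAK-931-2 (4.32) nearly equalled Vehicle-2 (4.2).

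Among other plasmacytoid genes, 10 of 13 were higher and 2 lower without overlap, with 7 and 1 at an unadjusted p under 0.05. Irf7, the factor behind interferon alpha genes, measured 62.5, 51.8, 569 and 155 CPM (log2 fold change 2.66, SE 0.70). Bst2, an interferon-induced membrane protein, measured 110, 98.8, 347 and 151 CPM (1.25, SE 0.46). Lag3, a receptor that T cells also carry, measured 3.97, 2.28, 152 and 20.1 CPM (4.78, SE 1.16). The gene in the other direction was Cox6a2, a cytochrome oxidase subunit, at 49.9 and 42.7 CPM under vehicle and 17.3 and 24.7 under TAK-931 (-1.14, SE 0.29).

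Genes of mature dendritic cells were higher without overlap in 9 of 10 tested. The co-stimulatory molecule Cd86 measured 4.63, 4.2, 41.4 and 17.0 CPM (log2 fold change 2.72, SE 0.56), and the co-stimulatory receptor Cd40 measured 5.81, 1.56, 25.4 and 20.5 CPM (2.64, SE 0.74). Ccr7, which guides dendritic cells to lymph nodes, measured 2.02, 1.44, 18.4 and 7.58 CPM (2.91, SE 0.67). Il12b, the shared subunit of interleukin-12 and interleukin-23, had 2 and 0 counts under vehicle and 178 and 98 under TAK-931. Socs2, a brake on cytokine signalling, was higher in TAK-931-1 alone, at 10.7, 11.9, 23.4 and 10.7 CPM.

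Genes of dendritic cell growth and attraction were higher without overlap in 9 of 11 tested. The FLT3 ligand gene Flt3l, named for its role, measured 3.62, 5.51, 16.6 and 4.67 CPM, and so overlapped as its receptor did. Csf1r, the receptor of macrophage growth factor, measured 42.5, 38.2, 588 and 102 CPM (log2 fold change 3.09, SE 0.91). Ccl5, a ligand that attracts type 1 cells and T cells, measured 10.3, 2.52, 248 and 50.1 CPM (4.54, SE 1.17). Ccr2, a receptor of migrating monocytes, and Csf2rb, a subunit of the GM-CSF receptor, had log2 fold changes of 2.95 (SE 0.88) and 1.15 (SE 0.28).

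For 4 members the nearest genes were found by Euclidean distance between centred log2 CPM over the 4 libraries, among tested genes with a mean log2 CPM over 1. Clec9a was nearest to Itgbl1 (distance 0.25), Crtam (0.358) and H2-Aa (0.5), all 3 of them highest in TAK-931-1. Siglech was nearest to Tdrd7 (0.18), Fut11 (0.182) and H2-Q2 (0.19). Cd209a was nearest to Snx32 (0.135), Ptp4a1 (0.211) and Scn7a (0.228), which shared its low Vehicle-1 and close TAK-931 libraries. Flt3 was nearest to Dnajc30 (0.0356), Nras (0.0362) and Arhgap18 (0.0449), which like Flt3 were lowest in TAK-931-2. With 4 points per gene such likeness is a description.

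In mm10, Flt3 spans bases 147330742 to 147400489 of chromosome 5 and Zbtb46 bases 181390886 to 181459426 of chromosome 2. Irf8 (120736358 to 120756692) and Cd209a (3743395 to 3748984) are on chromosome 8, Batf3 (191098414 to 191108943) on chromosome 1, Clec9a (129408862 to 129424764) on chromosome 6, Wdfy4 (32959547 to 33185066) on chromosome 14, Clec10a (70166623 to 70170836) on chromosome 11 and Siglech (55768178 to 55778833) on chromosome 7. Counts were summed over exons, and no exon of the 10 members overlapped an exon of another gene in the tables, on either strand. Of the 50-base stretches of each member's transcripts, 9.02% of those of Clec10a and 4.02% of those of Clec9a also occurred in transcripts of other genes, Mgl2 and Clec1b first, and at most 0.389% for the other 8.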

How the data were processed

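RNA of 4 tumours was measured. The authors deposited 1 featureCounts table per library with raw read counts per gene and, as a column of another kind that the authors deposited, the summed exon length. The submitters' processing notes name STAR 2.6.1c, featureCounts and mm10. The strand setting was not given in the sources used here. Of counts from 1 to 20, 17.9% to 23.9% were odd, so both mates of a pair appear to be counted. Genes were kept with filterByExpr (minimum count 10), scaled by TMM and tested with the robust quasi-likelihood test of edgeR 4.0.16 (R 4.3.3), treatment only, with Benjamini-Hochberg adjustment over 13669 genes at 0.05. With 2 against 2 libraries the smallest two-sided exact permutation p is 0.333, so none was used. Ratios to the vehicle mean are differences of log2 CPM with a prior count of 2. Poisson intervals are exact at 95% and, like the floor of 3 counts (0.153 to 0.182 CPM per library), cover counting error only; counted mates make the intervals too narrow and the floor too low. The fit was run on simulated counts with equal spread in both groups, unlike these libraries, so that run does not vouch for the calls here. Alternatives were DESeq2 1.42.0, limma-voom (limma 3.58.1), other scalings, filters, halved counts, a replicate block and leaving out each library. Named were all members, Ptprc, Cdc7 and, from each list of dendritic cell genes, at most the 4 genes of highest CPM with an unadjusted p under 0.05. Also named were genes of those lists with opposite directions in the TAK-931 libraries and a log2 ratio over 1 in size. For 4 members the 3 nearest genes were named. Dendritic cell genes named outside this rule are marked as such. Single markers of other cell types were named outside it. Promoter sequences are from RefSeq, and 1 planned motif is not reported here. The members and lists were chosen with earlier results of these data known.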

Additional observations from a re-analysis of the deposited data

How the results depend on the processing

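Among the log2 fold changes of single members recomputed under the alternatives, 11 values from 6 members gained an unadjusted p under 0.05, 6 values from Batf3 and Irf8 lost it and 3 turned sign. The others kept their direction and side of that threshold, though not always their size. With a library left out, the spread of its group is taken from the other group. The number of members at an unadjusted p under 0.05, 2 in the reported fit, was 4 by DESeq2, 1 by limma-voom and 1 to 6 with a library left out, 6 of them without TAK-931-2. The share of all genes in either direction was 18.1% in the reported fit, 23.5% by DESeq2, 14.3% by limma-voom, 6.86% and 6.98% without Vehicle-1 and Vehicle-2, 40.8% without TAK-931-1 and 63.1% without TAK-931-2. At an adjusted p under 0.05 the number of members was 0, against 3 by DESeq2, 0 to 4 with a library left out and 1 with the replicate block, Irf8 at an edgeR adjusted p of 0.0333. The block used the numbers shared in the titles, called 141 genes higher and 3 lower of 13669, and was not shown to pair the tumours: deviations of same-numbered libraries correlated at 0.004. The count of members higher without overlap was 5 of the 8 left where at least 10 counts were required in every library (28.2% of all genes), Clec9a and Cd209a dropping out, and 7 to 8 with a library left out (34.2% to 46.1% of all genes); tests, block and robust estimation do not enter it. The median log2 fold change ran from 0.56 (without TAK-931-1) to 1.81. With a library left out, Flt3 ran from -0.37 to 0.04, turning sign without TAK-931-2, and Wdfy4 from -0.22 to 0.34, turning sign without Vehicle-2 (-0.04) and without TAK-931-2. The median ratio to vehicle was 1.93 and 0.59 with a prior count of 0.5 and 1.78 and 0.62 with library size only, in TAK-931-1 and TAK-931-2. Relative to macrophage markers in place of Ptprc, the members' median was -2.24 and -0.93. The median log2 ratio to vehicle was 4.05 and 1.49 for those markers and -0.02 and -0.01 over all genes, and the members lay in between. Of other dendritic cell genes, 20 to 42 were higher at an unadjusted p under 0.05 with a library left out and 36 by DESeq2, against 30. Clec9a, Cd209a and Siglech rest on under 20 counts in at least 1 vehicle library.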
